A study of Mus musculus with 8 samples.

Results

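Forkhead (Fox), GATA, T-box, Sox and AP-2 genes encode lineage transcription factors, and 47 of them were examined among 21900 protein-coding genes for peaks of METTL14 and METTL3 in mouse embryonic stem cells (ESCs). The list was drawn by gene family, without Sox2 and Tbx3, and holds 16 Fox genes, 5 Gata genes, 9 T-box genes with Eomes, 12 Sox genes and 5 AP-2 (Tfap2) genes. METTL3 and METTL14 are partners in the enzyme that places N6-methyladenosine on RNA, METTL3 being the catalytic one. Their chromatin sites were mapped by CUT&RUN, in which an antibody directs micrococcal nuclease to a protein's sites and the fragments cut free are sequenced. METTL14 was profiled in Mettl3 CKO and in Mettl3 Control ESCs, and METTL3 in Mettl14 CKO and in Mettl14 Control ESCs, with 2 libraries in each of the 4 groups. All cells were labelled C57BL/6 ESCs and were grown in serum with LIF, the GSK3 inhibitor CHIR99021 and the MEK inhibitor PD0325901. The labels do not spell out CKO, name the alleles or the Cre, say whether each line is 1 clone, or say that the libraries came from separate cultures, so a p-value here reflects how far these libraries differ, which may be technical. Peak lists do not measure expression, so they check neither the cell type against its markers nor the loss of Mettl3 or Mettl14. No library made with a nonspecific antibody was analysed here.

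The METTL14 lists held 3922 and 1439 peaks in Mettl3 CKO libraries (replicates 1 and 2) and 3129 and 3546 peaks in Mettl3 Control libraries. The METTL3 lists held 242 and 344 peaks in Mettl14 CKO libraries and 353 and 341 in Mettl14 Control libraries. Read depth is unknown, and the lists give positions without heights.

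As background, the 5 families are DNA-binding factors that set up tissues after the embryo leaves pluripotency. FOXA and GATA factors open chromatin for endoderm, T-box factors pattern mesoderm, heart and limbs, Sox factors act in the nervous system, cartilage, vessels and endoderm, and AP-2 factors act in neural crest, epidermis and trophoblast. Many of these genes are known in ESCs as silent Polycomb targets with CpG-rich promoters. Neither their expression nor Polycomb marks were measured here.

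The promoter windows that METTL14 regions entered are shown first, since there a region lies near or at a listed transcription start. A region counts as replicated in a group when, after touching peaks were merged, it holds peaks of both its libraries. The RefSeq promoter table (GRCm38.p6, the assembly behind mm10) listed windows of 250 bases before to 50 after a start for 30 of the 47 genes. Replicated regions entered the windows of 7 of them, and the 5 with at least 50 bases inside the region are printed on the gene's strand, with the bases of the replicated region in capitals. These 5 were chosen after their values were seen.
Tfap2a, second listed start (chr13:40733746-40734045, minus strand), replicated in CKO: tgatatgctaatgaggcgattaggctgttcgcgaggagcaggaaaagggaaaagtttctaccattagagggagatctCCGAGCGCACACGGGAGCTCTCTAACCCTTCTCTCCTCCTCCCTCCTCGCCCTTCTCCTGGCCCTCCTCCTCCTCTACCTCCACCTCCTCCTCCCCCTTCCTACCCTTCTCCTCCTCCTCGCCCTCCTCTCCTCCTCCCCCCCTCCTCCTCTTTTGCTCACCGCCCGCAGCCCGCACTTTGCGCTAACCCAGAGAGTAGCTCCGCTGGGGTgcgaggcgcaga
Foxd2 (chr4:114908849-114909148, minus strand), replicated in CKO: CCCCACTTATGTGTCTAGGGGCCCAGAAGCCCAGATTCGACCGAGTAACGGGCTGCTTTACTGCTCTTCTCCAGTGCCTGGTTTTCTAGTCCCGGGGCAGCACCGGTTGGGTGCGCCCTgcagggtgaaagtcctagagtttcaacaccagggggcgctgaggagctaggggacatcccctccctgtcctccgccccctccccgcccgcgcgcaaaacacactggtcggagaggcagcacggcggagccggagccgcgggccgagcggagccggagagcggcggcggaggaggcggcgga
Foxa2, second listed start (chr2:148045899-148046198, minus strand), replicated in Control: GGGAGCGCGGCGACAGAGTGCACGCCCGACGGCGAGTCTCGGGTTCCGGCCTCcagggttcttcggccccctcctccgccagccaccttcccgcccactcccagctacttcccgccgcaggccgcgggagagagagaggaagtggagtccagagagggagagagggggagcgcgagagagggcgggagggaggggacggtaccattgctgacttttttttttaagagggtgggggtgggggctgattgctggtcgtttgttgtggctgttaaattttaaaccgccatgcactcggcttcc
Foxd1 (chr13:98353995-98354294, plus strand), replicated in Control: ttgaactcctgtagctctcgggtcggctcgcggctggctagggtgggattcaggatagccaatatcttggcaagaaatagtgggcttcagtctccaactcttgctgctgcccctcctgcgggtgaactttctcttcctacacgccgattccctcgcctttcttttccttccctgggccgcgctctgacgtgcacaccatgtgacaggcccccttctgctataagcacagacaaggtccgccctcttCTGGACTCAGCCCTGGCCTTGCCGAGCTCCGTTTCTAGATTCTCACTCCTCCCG
Eomes (chr9:118477939-118478238, plus strand), replicated in Control: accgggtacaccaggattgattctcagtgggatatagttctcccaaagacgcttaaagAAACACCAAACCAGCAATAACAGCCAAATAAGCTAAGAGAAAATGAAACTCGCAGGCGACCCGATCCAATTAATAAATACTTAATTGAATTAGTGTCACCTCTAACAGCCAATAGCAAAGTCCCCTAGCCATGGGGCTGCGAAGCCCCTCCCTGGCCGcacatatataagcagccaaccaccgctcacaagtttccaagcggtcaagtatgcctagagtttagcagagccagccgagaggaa
The regions covered 211 bases of the Tfap2a window, 119 of the Foxd2 window, 53 of the Foxa2 window, 54 of the Foxd1 window and 158 of the Eomes window. Those of Tfap2a and Foxd1 held the listed start itself, and those of Foxd2, Foxa2 and Eomes ended upstream of it. The covered parts held 10 CG dinucleotides in Tfap2a, 6 in Foxd2, 9 in Foxa2, 3 in Foxd1 and 5 in Eomes. The windows of Foxl2 and Gata2 (second listed start) were entered by 20 and 39 bases of a CKO region, which did not hold the start.

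METTL14 peaks lay at 16 to 29 of the 47 lineage factors in each METTL14 library, and the share was above that of all protein-coding genes in each of the 4. A gene was counted when a peak lay in it or within 2 kb of either end. In CKO libraries 29 and 16 of the 47 genes had a peak (61.7% and 34.0%), where 12.9% and 4.91% of all protein-coding genes had one. In Control libraries 23 and 26 genes had a peak (48.9% and 55.3%), where 9.71% and 11.2% of all genes had one. Over the 4 libraries 35 of the 47 genes (74.5%) had at least 1 peak, beside 20.8% of all genes, and 12 had a peak in all 4 (25.5%), beside 2.53% of all genes. With 10 or more peaks summed over the libraries there were 3, Tfap2a, Tfap2b and Foxa1 (6.38%), beside 0.228% of all genes. The set was listed with earlier results of these data known, so these shares are descriptions with no test.

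**Figure D1:**
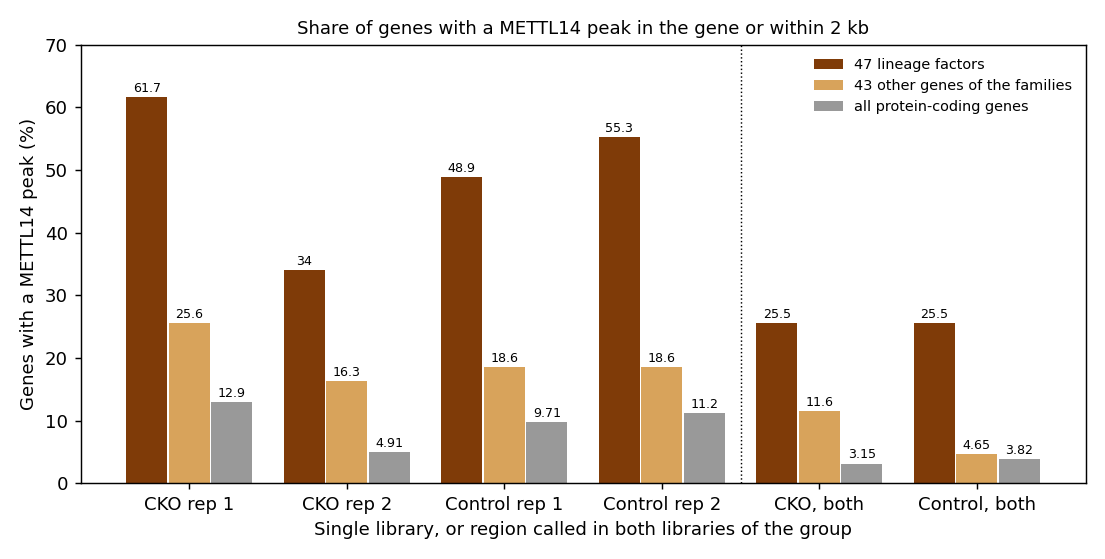
Percent of genes with a METTL14 peak in the gene or within 2 kb (y axis), in each library and for regions called in both libraries of a group (x axis), for the 47 lineage factors, 43 other genes of the same families and all protein-coding genes. The bars of the lineage factors run from 25.5% to 61.7% and stand above both other sets in each column.

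Replicated METTL14 regions lay at 12 of the 47 genes (25.5%) in CKO cells, beside 3.15% of all protein-coding genes, and at 12 (25.5%) in Control cells, beside 3.82% of all genes. In either group they lay at 19 (40.4%), beside 5.19%. With peaks of both libraries at any place of the gene, 15 were found in CKO cells, beside 3.91% of all genes, and 20 in Control cells, beside 5.37%. The median gene length was 7402 bp for the lineage factors and 17146 bp for all protein-coding genes. Their merged windows of 2.49 Mb held 22.1 and 10.4 peaks per Mb in CKO libraries and 18.9 and 20.5 in Control libraries. Windows of all protein-coding genes held 2.57 and 0.93 peaks per Mb in CKO libraries and 1.95 and 2.26 in Control libraries. The median position of the peaks in the deposited lists, whose order the labels do not explain, was at 21.0% and 28.4% of the CKO lists and at 20.3% and 22.4% of the Control lists.

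The number of lineage factors with a METTL14 peak overlapped between CKO and Control libraries. It averaged 22.5 ± 9.19 in CKO and 24.5 ± 2.12 in Control libraries (SD, n = 2 each), a log2 difference of -0.18 (exact permutation p = 1, two-sided, where 0.333 is the smallest possible). Peaks at these genes numbered 55 and 26 in CKO libraries and 47 and 51 in Control libraries, a log2 difference of -0.37 (exact permutation p = 1). CKO replicate 1 was the highest and CKO replicate 2 the lowest, so the groups overlap. Without CKO replicate 2, whose list is the shortest, the differences turned to 0.25 and 0.17. As a share of each list, 1.40% and 1.81% of CKO peaks and 1.50% and 1.44% of Control peaks lay at these genes (log2 difference 0.12, exact permutation p = 1). That sign turned as well without CKO replicate 2 (-0.068). With each list shortened to its first 1439 peaks, 22 and 16 genes had a peak in CKO libraries, beside 4.63% and 4.91% of all genes. In Control libraries 21 and 22 had one, beside 4.4% and 4.33%. CKO replicate 2 was still the lowest, and the share difference was -0.31. Replicated regions then lay at 11 genes in CKO (2.22% of all genes) and 10 in Control cells (2.01%). The calls that ended were Foxc2 in CKO cells and Tbx5 and Sox5 in Control cells.

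Of the 19 genes with a replicated region in either group, 5 had one in both groups, Foxa1, Gata3, Sox17, Tfap2a and Tfap2b (10.6% of the 47, beside 1.78% of all protein-coding genes). A further 7 (14.9%) had one in CKO cells alone, beside 1.37% of all genes, and 7 (14.9%) in Control cells alone, beside 2.04%. Of 16 replicated Control regions at the lineage factors, 5 (31.2%, 95% Wilson interval 14.2% to 55.6%) were also covered at least in part by a replicated one of CKO cells, beside 38.7% (35.3% to 42.2%) of those at all protein-coding genes. A peak of either CKO library overlapped 10 of the 16 (62.5%, 38.6% to 81.5%), beside 76.8% (73.6% to 79.6%) at all protein-coding genes. Of 15 replicated CKO regions, 5 (33.3%, 15.2% to 58.3%) were overlapped by a replicated Control region, beside 49.6% (45.6% to 53.6%) at all protein-coding genes. A peak of either Control library overlapped 12 of the 15 (80.0%, 54.8% to 93.0%), beside 81.6% (78.2% to 84.5%). The intervals cover counting error only. With peaks widened by 500 bp on each side the first share was 14 of 22 (63.6%). The matching share at all protein-coding genes was not computed for widened peaks. The genes with a replicated region then numbered 15 in CKO (3.9% of all genes) and 17 in Control cells (4.87%). Within 2 kb of a gene boundary, without deeper gene bodies, there were 7 in CKO (2.63% of all genes) and 7 in Control cells (3.2%). A peak of either library gave 30 genes in CKO (13.9% of all) and 29 in Control cells (15.5%).

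**Figure D2:**
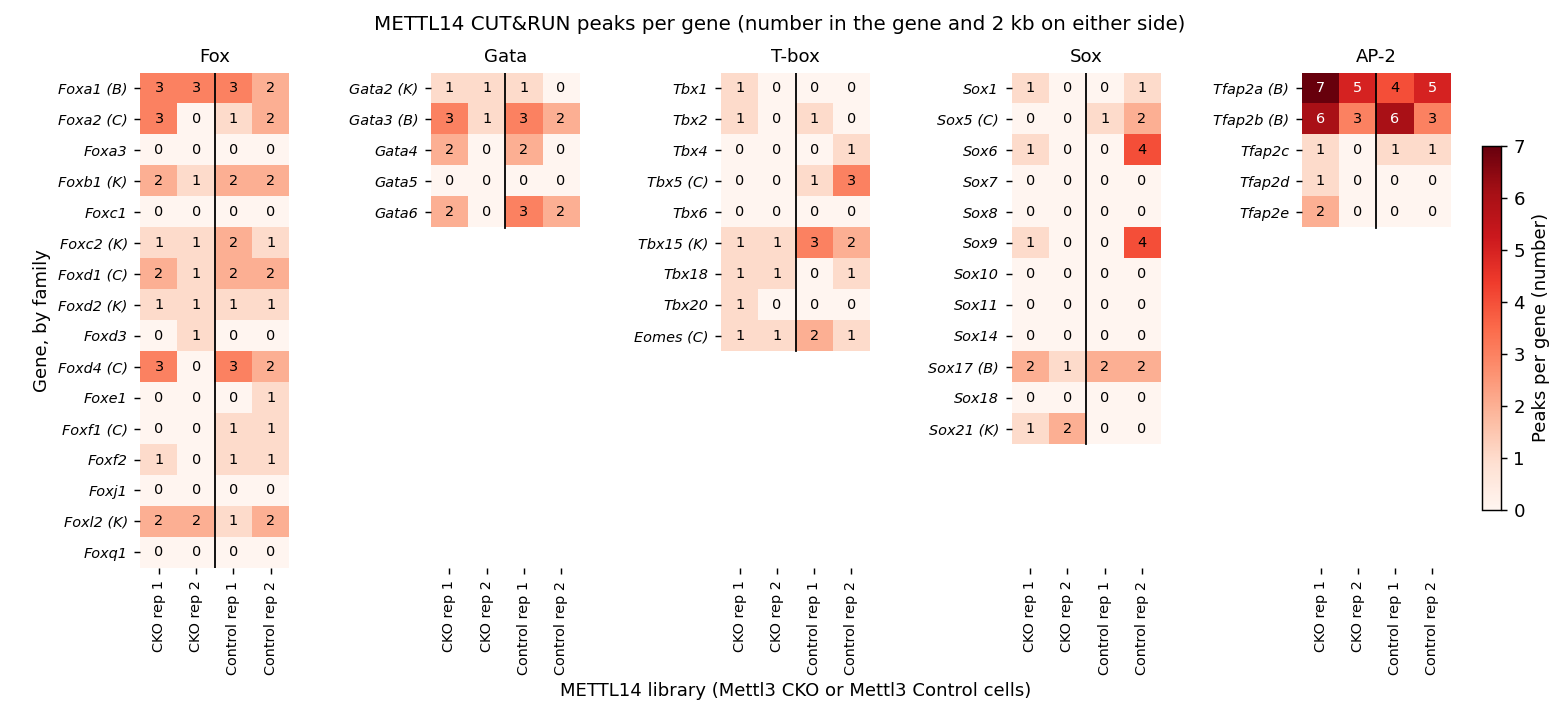
Number of METTL14 peaks in each of the 47 genes and 2 kb on either side, by library (columns, CKO left of Control) and family (panels), with the number in each cell and in color. Letters mark genes with a replicated region in both groups (B), in CKO only (K) or in Control only (C). Tfap2a and Tfap2b have the most peaks, and 12 genes have none.

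Tfap2a, a regulator of neural crest and epidermis, had 7 and 5 peaks in CKO libraries and 4 and 5 in Control libraries. Its sum of 21 peaks was exceeded by 7 of the 21900 protein-coding genes. The gene lies at chromosome 13: 40713802 to 40738238 (mm10). Of its regions, the CKO region 40722951 to 40723205 and the Control region 40722999 to 40723159 overlapped inside the gene, with centres 10717 bp and 10716 bp downstream of the nearest listed start (distances here and below are from region centres). A CKO region at 40733758 to 40733968 covered the second listed start and met no Control peak. The Control region at 40734098 to 40734321, 414 bp upstream of that start, was met by a peak of CKO replicate 1. Both fell in the window of the noncoding gene Gm26688.

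Tfap2b, which acts in kidney and neural crest, had 6 and 3 peaks in CKO libraries and 6 and 3 in Control libraries. The gene (chromosome 1: 19208908 to 19238845) carried them in 2 stretches, the first upstream of the listed start and the other with peak centres from 21.97 kb downstream of it. Upstream of the start the CKO region 19210222 to 19210370 and the Control region 19210221 to 19210378 overlapped. A further CKO region at 19209230 to 19209404 was met by Control replicate 2. In the downstream stretch the replicated positions differed, with 19234693 to 19234893 in CKO cells and 19235105 to 19235260 in Control cells. Both groups thus had peaks in both stretches. Tfap2c, a factor of trophoblast and germ cells, had 1 and 0 in CKO and 1 and 1 in Control libraries. Tfap2d, of the midbrain and retina, and Tfap2e, of the olfactory bulb, had 1 and 2 peaks in CKO replicate 1 and 0 in the other libraries.

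**Figure D3:**
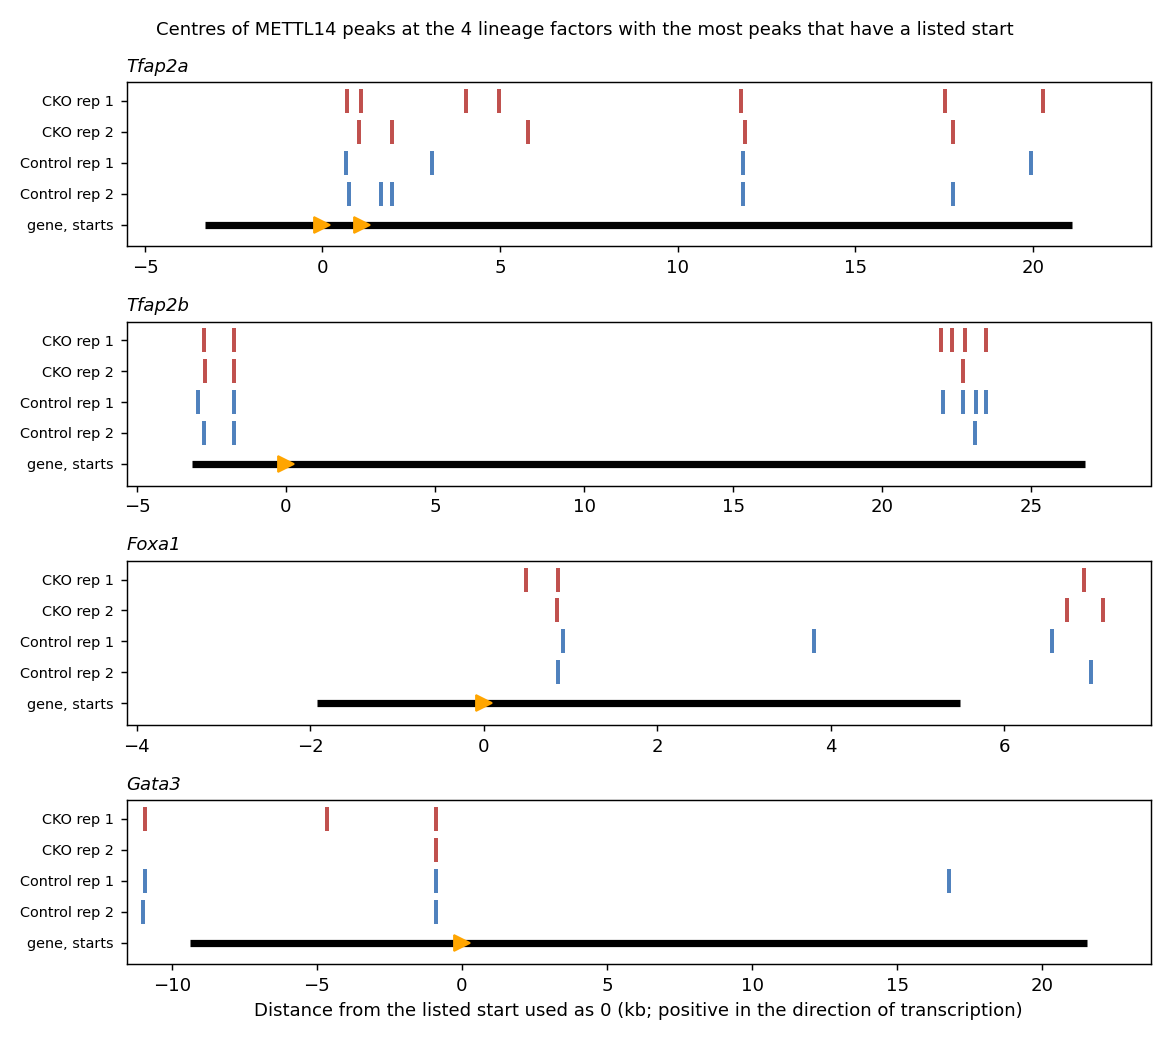
Centres of METTL14 peaks (vertical ticks) at Tfap2a, Tfap2b, Foxa1 and Gata3 in the 4 libraries, as distance in kb from the listed start farthest upstream (x axis, positive in the direction of transcription). Black bars are the genes and orange arrowheads the listed starts. At each gene 1 position is shared by all 4 libraries, and elsewhere ticks line up in only some of the libraries.

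Foxa1, a pioneer factor of endoderm, had 3 and 3 peaks in CKO libraries and 3 and 2 in Control libraries. The shared position was at chromosome 12: 57545184 to 57545341 in CKO and 57545129 to 57545329 in Control cells, inside the gene, 848 bp and 882 bp downstream of its listed start. It also fell in the window of the coding gene Ttc6. Gata3, which acts in trophoblast and T cells, had 3 and 1 peaks in CKO and 3 and 2 in Control libraries. Its shared position was at chromosome 2: 9879409 to 9879558 in CKO and 9879418 to 9879566 in Control cells. It lay 884 bp and 892 bp upstream of the listed start but inside the gene. A second Control region, at 9889451 to 9889645 and outside the gene, was met by CKO replicate 1. Sox17, a factor of endoderm and arteries, had 2 and 1 peaks in CKO and 2 and 2 in Control libraries. Its shared position lay inside the gene at chromosome 1: 4492959 to 4493216 in CKO and 4493116 to 4493298 in Control cells. A second Control region, at 4493556 to 4493752, met no CKO peak.

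Replicated regions in CKO cells alone were found at Foxb1, Foxc2, Foxd2, Foxl2, Gata2, Tbx15 and Sox21. At 5 of these, all except Gata2 and Sox21, both Control libraries had a peak at the gene, but not at 1 place. Foxb1, a factor of the hypothalamus, had 2 and 1 peaks in CKO and 2 and 2 in Control libraries, and Control replicate 2 met its CKO region. Foxl2, needed in the ovary, had 2 and 2 in CKO and 1 and 2 in Control libraries, and its CKO region (chromosome 9: 98955089 to 98955376, 374 bp upstream of the listed start) met a peak of each Control library. Those Control peaks did not meet each other. Foxd2, a factor of the kidney, had 1 peak in each library, and the peak of Control replicate 2 met the CKO region shown above. That of Control replicate 1 covered the listed start, and all 4 libraries had a peak in the Foxd2 promoter window. Foxc2, which acts in lymphatic vessels and somites, had 1 and 1 in CKO and 2 and 1 in Control libraries, and Control replicate 1 met its CKO region at chromosome 8: 121116165 to 121116360, a call that ended at equal list length. Tbx15, a factor of skeletal development, had 1 and 1 in CKO and 3 and 2 in Control libraries, and Control replicate 1 met its CKO region at chromosome 3: 99241045 to 99241228. The Control peaks at these genes were thus partly at the CKO place. Gata2, a regulator of blood stem cells, had 1 and 1 in CKO and 1 and 0 in Control libraries. Its CKO region at chromosome 6: 88198675 to 88198855, centred 101 bp downstream of the second listed start, met no Control region or peak. The peak of Control replicate 1, at 88198438 to 88198586, lay upstream of that start. Peaks of Control replicate 1 and of both CKO libraries thus entered the same promoter window. Sox21, a neural factor, had 1 and 2 peaks in CKO and 0 and 0 in Control libraries. It was the 1 lineage factor of 47 with peaks in both CKO and no Control library (2.13%, beside 0.466% of all genes), and its region at chromosome 14: 118231160 to 118231326 lay 1907 bp outside the gene.

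Replicated regions in Control cells alone were found at Foxa2, Foxd1, Foxd4, Foxf1, Tbx5, Eomes and Sox5. Foxa2, a pioneer factor of endoderm and node, had 3 and 0 peaks in CKO and 1 and 2 in Control libraries, and CKO replicate 1 met its Control region at chromosome 2: 148046146 to 148046369. Foxd1, a factor of kidney stroma, had 2 and 1 in CKO and 2 and 2 in Control libraries. Its Control region was at chromosome 13: 98354241 to 98354420, at the listed start, where CKO replicate 1 also had a peak, and all 4 libraries had a peak in the promoter window shown above. Foxd4, a factor of neural ectoderm, had 3 and 0 in CKO and 3 and 2 in Control libraries, and no CKO peak met its Control region at chromosome 19: 24899396 to 24899574. Eomes, needed for trophoblast and definitive endoderm, had 1 and 1 in CKO and 2 and 1 in Control libraries, and its Control region (chromosome 9: 118477997 to 118478154) lay 114 bp upstream of the listed start and was met by CKO replicate 1. Peaks in both Control and no CKO library were found at 3 of these genes (6.38% of the 47, beside 0.89% of all protein-coding genes). Foxf1, a factor of lung and gut mesenchyme, had 0 and 0 in CKO and 1 and 1 in Control libraries, at chromosome 8: 121083375 to 121083524, in the window of the noncoding gene Fendrr. Tbx5, of heart and forelimb, had 0 and 0 in CKO and 1 and 3 in Control libraries, with the replicated region at chromosome 5: 119804517 to 119804783. Sox5, of cartilage, had 0 and 0 in CKO and 1 and 2 in Control libraries, with the region at chromosome 6: 144361572 to 144361753. At equal list length Foxf1 still had a replicated Control region and Tbx5 and Sox5 did not, since the Control replicate 2 peaks in those regions stood at positions 2000 and 2845 of its list. Differences at single genes were not tested. Foxa2, Foxd4, Foxf2, Gata6 and Tfap2c had peaks in every METTL14 library except CKO replicate 2, which has the shortest list, and its part in these differences was not tested.

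A further 16 genes had peaks but no replicated region. Gata6, a regulator of primitive endoderm, had the most, with 2 and 0 peaks in CKO and 3 and 2 in Control libraries, and those peaks also fell in the window of its noncoding neighbour Gata6os. Sox9, of cartilage and testis, had 1 and 0 in CKO and 0 and 4 in Control libraries. Sox6, of cartilage and muscle, had 1 and 0 in CKO and 0 and 4 in Control libraries. At both Sox genes Control replicate 2 was the high library and Control replicate 1 had no peak. Gata4, of heart and endoderm, had 2 and 0 in CKO and 2 and 0 in Control libraries. Tbx18, of the epicardium, had 1 and 1 in CKO and 0 and 1 in Control libraries. The others had 1 to 3 peaks in all. They were Foxd3 of neural crest, Foxe1 of the thyroid, Foxf2 of gut mesenchyme, Tbx1 of the pharyngeal arches, Tbx2 of heart and limb, Tbx4 of the hindlimb, Tbx20 of the heart, Sox1 of neural progenitors, and Tfap2c, Tfap2d and Tfap2e. No METTL14 peak was found at 12 genes. These were Foxa3 of liver, Foxc1 of eye and somites, Foxj1 of ciliated cells, Foxq1 of hair and stomach, Gata5 of heart, Tbx6 of presomitic mesoderm, Sox7 and Sox18 of vessels, Sox8 and Sox10 of neural crest, and Sox11 and Sox14 of neurons. Their nearest METTL14 peak in any library was 9740 to 918721 bp from the gene, with a median of 81944 bp. Peaks in at least 1 METTL14 library lay at 20.8% of all protein-coding genes, and replicated regions in either group at 5.19%.

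By family, AP-2 genes had peaks at 5 of 5 genes and Sox genes at 6 of 12. Fox genes had peaks at 12 of 16, Gata genes at 4 of 5 and T-box genes at 8 of 9. Of all protein-coding genes 20.8% had a peak in at least 1 library. Replicated regions were found in CKO and in Control cells at 5 and 5 of 16 Fox genes, 2 and 1 of 5 Gata genes, 1 and 2 of 9 T-box genes, 2 and 2 of 12 Sox genes, and 2 and 2 of 5 AP-2 genes. Replicated regions lay at 3.15% of all protein-coding genes in CKO and 3.82% in Control cells. No family's count differed between CKO and Control cells by more than 1 gene, but the genes were mostly not the same. Those called in both groups were 1 Fox, 1 Gata, 1 Sox and 2 AP-2 genes, and no T-box gene. Sharing was also partial over all protein-coding genes. Of these 389 had a region in both groups, 300 in CKO cells alone and 447 in Control cells alone. Length moved with family, with a median of 3019 bp for Fox, 6023.5 bp for Sox, 24437 bp for AP-2, 28461 bp for T-box and 30876 bp for Gata genes, and its part in the counts was not tested.

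**Figure D4:**
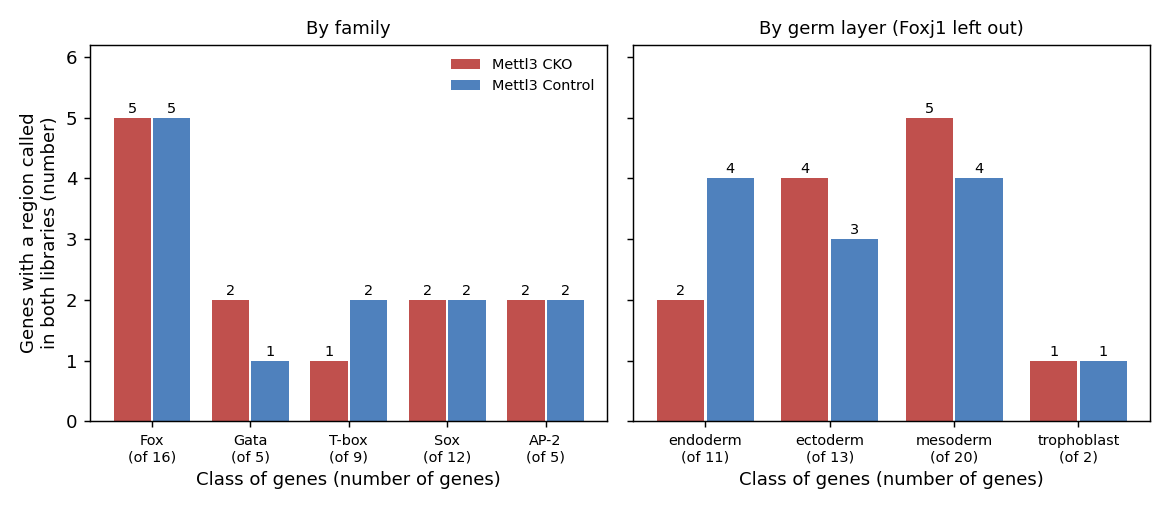
Number of genes with a METTL14 region called in both libraries of a group (y axis), in Mettl3 CKO and Mettl3 Control cells, by family (left) and by germ layer (right), with the number of genes in each class under its name. Bars differ between the groups by 0 or 1 gene, apart from endoderm, with 2 in CKO and 4 in Control cells. Of all protein-coding genes 3.15% in CKO and 3.82% in Control cells had such a region.

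By germ layer, each gene was put in 1 layer by textbook knowledge, although many act in several. Sox7 and Gata5, named above for vessels and heart, were counted as endoderm, as was Eomes, which also acts in trophoblast. Over all protein-coding genes the shares with a replicated region were 3.15% in CKO and 3.82% in Control cells, and 1.78% had one in both. Endoderm genes had replicated regions at 2 of 11 in CKO and 4 of 11 in Control cells, the difference being Foxa2 and Eomes. Both had a peak in CKO replicate 1, and Eomes also in CKO replicate 2. Mesoderm genes had them at 5 of 20 in CKO and 4 of 20 in Control cells, with no gene in common. Ectoderm genes, neural crest included, had them at 4 of 13 in CKO and 3 of 13 in Control cells, with Tfap2a and Tfap2b in both. Of the trophoblast factors Gata3 had a region in both groups and Tfap2c in neither. Foxj1, the regulator of motile cilia, was placed in no layer and had no peak.

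METTL14 regions at the lineage factors lay both at listed starts and deep in the genes. Merged over the 4 libraries there were 114 regions at 35 genes, 84 of them inside or overlapping the gene and 73 (64.0%) called in a single library, beside 70.7% of all 8091 regions. Of the 76 regions at genes with a listed start, 29 (38.2%) lay within 1 kb of one, beside 59.9% of 5272 pairs of a region and a protein-coding gene. Among replicated regions 6 of 11 in CKO and 6 of 12 in Control cells lay within 1 kb of a start, beside 72.8% and 70.5% over all protein-coding genes. The listed starts may not be complete, and these values are descriptions. A noncoding RNA gene lay within 2 kb of 45 of the 114 regions, among them Foxd2os, Foxl2os, Gata6os, Fendrr beside Foxf1, and Sox1ot. Peaks cannot say which of 2 such genes they belong to.

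By medians over listed promoter windows, those with a METTL14 peak held more CG dinucleotides than those without, at the lineage factors and at all genes. A peak entered 11 of their 42 listed windows (26.2%), beside 9.49% of 21238 windows of all protein-coding genes. Windows with a peak held a median of 22 CG dinucleotides in 300 bases at the lineage factors and 24 at all genes. Windows without a peak held 13 at the lineage factors and 11 at all genes. A gene with several listed starts counts more than once. The 31 lineage factor windows without a peak came from 22 genes. Of them 6 were of Sox6 (2 to 13 CG dinucleotides) and 3 of Tfap2d (5 to 10). The medians and GC box counts are thus per window, and values per gene were not tested. The GC box (GGGCGG on either strand) was in 8 of the 11 windows with a peak and in 18 of the 31 without, at the lineage factors, and in 73.8% of windows with a peak, 43.3% of those without and 46.2% of all windows at all protein-coding genes. Among windows without a peak that of Foxc1 held 32 CG dinucleotides and that of Gata5 held 26, and neither gene had a peak anywhere.

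Among the lineage factors 12 of 47 had a replicated region in CKO and 12 of 47 in Control cells. Among 43 other Fox, Gata, T-box and Sox genes there were 5 (11.6%) in CKO and 2 (4.65%) in Control cells. Of all protein-coding genes 3.15% had one in CKO and 3.82% in Control cells, near the Control share of the 43 others. The difference between the lists was not tested. The others with one were Foxo6 and Foxp2 in both groups, and Foxb2, Foxo3 and Sox12 in CKO cells alone. Foxp2, which acts in the brain, had 2 and 1 peaks in CKO and 1 and 1 in Control libraries. Foxo6 had 1 and 1 in CKO and 2 and 1 in Control libraries. Foxo3, a target of insulin signalling, had 1 and 1 in CKO and 0 and 1 in Control libraries. Foxb2 had 1 and 1 in CKO and 0 and 2 in Control libraries, and Sox12 had 2 and 1 in CKO and 2 and 0 in Control libraries. The Control libraries thus had peaks at all 5 of these genes. Peaks in at least 1 library were found at 35 of the 47 lineage factors and at 15 of the 43 others (34.9%), beside 20.8% of all genes.

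No METTL3 library had a peak at any of the 47 lineage factors, in Mettl14 CKO or in Mettl14 Control cells. The lists were short, and 0.393% and 0.584% of all protein-coding genes had a METTL3 peak in CKO libraries and 0.635% and 0.566% in Control libraries. Replicated METTL3 regions lay at 0.164% of all genes in CKO and 0.151% in Control cells, and a peak of at least 1 library at 1.53%. A count of 0 among 47 genes is therefore near the background. A count of 0 allows up to 1.24% and 0.872% of the CKO lists and up to 0.85% and 0.88% of the Control lists to lie at these genes (3 counts of the list). The nearest METTL3 peak to any of the genes was 71442 bp away. The antibodies were used in different cell lines and gave lists of different length, so antibody, line and list length cannot be told apart.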

How the data were processed

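METTL14 and METTL3 were profiled by CUT&RUN in mouse ESCs, with 1 deposited peak list per library. Tools listed without their roles in the submitters' processing notes were HOMER, SAMtools, Bowtie2 2.4.1, Trimmomatic 0.38 and CASAVA, and the build was mm10. How peaks were thresholded, and against which background, is not given in the sources used here. The deposited score was 1 for every peak, so only positions were used. Gene boundaries were those of RefSeq (GRCm38.p6). Peaks and genes were compared in Python 3.11.15 with numpy 2.4.6 and pandas 2.3.3, checked on simulated lists. Overlap meant 1 bp or more, and a gene window was the gene with 2 kb on either side. Libraries were compared by exact permutation tests, two-sided. Alternatives were other windows, overlaps, widths and list lengths, and each library left out. Every lineage factor with a replicated METTL14 region was named with its 4 library values, and the others were named once. Of 44 other family genes, 43 matched the table. The genes, lists and germ layers were chosen with earlier results of these data known. Promoters were printed where a replicated region entered them by 50 bases, since no genome was given and most windows of the genes called in all 4 libraries, the planned choice, held none. Germ layers are textbook assignments, 1 for each gene.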

Additional observations from a re-analysis of the deposited data

How the results depend on the processing

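Under 61 combinations of a result and an alternative, 47 kept a log2 difference's direction, a count within 1.5 times the reported one, or the share found again within its reported 95% interval (14.2% to 55.6%). That interval is wide, and the share was 14.3% (1 of 7 regions) within 2 kb of gene boundaries alone. The 47 include the 3 log2 differences with the replicate number as a block, which equal the reported ones by construction. Leaving out each library in turn gave 16 to 29 genes with a region in CKO and 23 to 26 in Control cells (a lone library standing for its group). A lone library marked 4.91% to 12.9% of all protein-coding genes in CKO and 9.71% to 11.2% in Control cells. The share of Control regions found again was then 17.6% to 56.2%. The log2 differences were -0.61 to 0.25 for genes with a peak, -0.91 to 0.17 for peaks and -0.068 to 0.30 for the share of the list. The signs of all 3 differences turned without CKO replicate 2 (0.25, 0.17 and -0.068). At equal list length the share difference was -0.31, and 11 genes in CKO (2.22% of all genes) and 10 in Control cells (2.01%) had a replicated region, without Foxc2, Tbx5 and Sox5. Within 2 kb of gene boundaries alone 7 genes were found in CKO (2.63% of all) and 7 in Control cells (3.20%), since regions deep in a gene no longer counted. Peaks of either library gave 30 and 29 genes (13.9% and 15.5% of all), and a peak of both Control libraries at any place of the gene 20 (5.37%). With peaks widened by 500 bp the share found again was 63.6%. The share found again was not computed over all protein-coding genes under any alternative. Other windows, boundaries alone and equal list length gave no METTL3 peak at these genes.

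The labels give both groups replicate numbers 1 and 2 without saying that they pair libraries, and deviations of same-numbered libraries had a Pearson r of -0.00944 across 4546 genes with a peak and 0.178 across the lineage factors, genes not being independent replicates. With the replicate number as a block the differences were by construction unchanged, at -0.18 for genes, -0.37 for peaks and 0.12 for the share (exact sign-flip permutation p = 1 each, where 0.5 is the smallest possible). Unknown depth limits all counts: a missing peak is not shown to be a missing site.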

Other observations

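Several of these genes are neighbours, and METTL14 peaks were uneven between some of them. Tfap2d and Tfap2b lie 34960 bp apart on chromosome 1, with 1 and 18 peaks summed over the 4 libraries. Tbx2 and Tbx4 lie 44.4 kb apart on chromosome 11 and had 2 and 1. Foxf1 and Foxc2 lie 28.0 kb apart on chromosome 8 and had 2 and 5, the replicated region of Foxf1 in Control cells and that of Foxc2 in CKO cells. In the run of Foxq1, Foxf2 and Foxc1 on chromosome 13, with gaps of 64.8 kb and 175 kb, Foxf2 had 3 peaks and the others none.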
